A study of Mus musculus with 18 samples.

Results

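The liver secretes a set of serum proteins whose blood levels change during inflammation, and 10 of their genes are described here: the serum amyloid A genes Saa1, Saa2 and Saa4, haptoglobin (Hp), hemopexin (Hpx), the orosomucoids Orm1 and Orm2, lipocalin 2 (Lcn2), serum amyloid P component (Apcs) and Itih4, an inter-alpha-trypsin inhibitor heavy chain. They were taken by gene symbol from the platform annotation, which gave 12 probe sets for these 10 genes out of 18193 genes named by a single symbol. All 12 probe sets passed the filter on low signal (57.5 on the array scale), and 1 probe set per gene, the brightest, entered the tests beside 11018 genes in all. The signals came from 18 Affymetrix arrays of liver RNA from offspring of DUK mice, an outbred line bred from several outbred and inbred stocks, in 6 groups of 3 arrays. All dams ate isoenergetic diets. In the HP pregnancy groups dams received 40% protein by weight in pregnancy and 20% in lactation, in the HP lactation groups 20% in pregnancy and 40% in lactation, and in the control groups 20% throughout. Offspring livers were taken at postnatal day 150 or day 21. Each array carried RNA pooled from several animals, 1 per litter, with pool sizes that differ between label fields. The sample titles call the arrays of a group biological replicates, but the labels do not say whether its pools shared animals. Errors and p-values thus measure only how far these arrays spread, part of which may be technical. Sex was not given.

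The acute phase response is the change in plasma protein synthesis by hepatocytes that follows infection or injury, and it is driven mainly by interleukin 6 acting through STAT3 and by interleukin 1 acting through NF-kB and C/EBP factors. Serum amyloid A proteins ride on high density lipoprotein, haptoglobin binds free haemoglobin, hemopexin binds free haem, orosomucoids carry drugs and lipids, lipocalin 2 binds the iron-carrying siderophores of bacteria, and serum amyloid P component is a pentraxin that mice use as a major acute phase reactant. Saa1 and Saa2 are strongly inducible, whereas Saa4 is classed as a constitutive serum amyloid A.

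The arrays differed little in overall profile, with correlations of 0.967 to 0.987 within groups and 0.906 to 0.982 between groups over the tested genes. Hepatocyte markers were bright in every array, the summed signal of all 8 being 152183 to 286588, with the highest sum in HP lactation day 150 replicate 4. Xist, transcribed from the inactive X chromosome of females, was detected in that array (5080, 2279 and 11644 on its 3 probe sets) and in control day 21 replicate 2 (2026, 1503 and 7343), and results that rest on these arrays are given without them below. On the brightest Xist probe set the other pools had 93 and 54.6 in HP lactation day 150 and 47.2 and 70.2 in control day 21. The pools of each of these groups thus did not hold just the same animals. Fewer cells of a type and less RNA per cell cannot be told apart in these bulk samples.

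The stretches just upstream of Saa1, Saa2, Orm2 and Lcn2 are shown because these 4 genes were the ones whose signals varied most between pools. Each is the 250 bases before the transcription start, 5′ to 3′ in the direction of the gene, from RefSeq on GRCm38.p6. Saa1 lies at chr7:46742981-46743230 on the minus strand, Saa2 at chr7:46751583-46751832 on the plus strand, Orm2 at chr4:63362199-63362448 on the plus strand and Lcn2 at chr2:32387740-32387989 on the minus strand. Capitals mark matches on either strand to the C/EBP-type motif TTNNGNAA.
Saa1: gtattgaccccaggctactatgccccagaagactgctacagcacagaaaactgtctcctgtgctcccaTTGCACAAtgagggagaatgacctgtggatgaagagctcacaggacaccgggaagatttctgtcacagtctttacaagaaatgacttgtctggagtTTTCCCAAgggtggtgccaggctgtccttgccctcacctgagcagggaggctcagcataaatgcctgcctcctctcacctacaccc
Saa2: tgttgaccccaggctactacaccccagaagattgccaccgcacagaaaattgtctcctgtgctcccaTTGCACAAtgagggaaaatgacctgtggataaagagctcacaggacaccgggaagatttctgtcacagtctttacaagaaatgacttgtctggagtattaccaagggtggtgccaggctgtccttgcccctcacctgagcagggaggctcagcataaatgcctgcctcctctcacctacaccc
Orm2: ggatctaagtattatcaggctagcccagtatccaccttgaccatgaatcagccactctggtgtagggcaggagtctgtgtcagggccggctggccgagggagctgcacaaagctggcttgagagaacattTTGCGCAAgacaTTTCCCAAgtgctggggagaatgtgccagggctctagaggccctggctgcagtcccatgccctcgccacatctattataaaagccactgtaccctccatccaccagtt
Lcn2: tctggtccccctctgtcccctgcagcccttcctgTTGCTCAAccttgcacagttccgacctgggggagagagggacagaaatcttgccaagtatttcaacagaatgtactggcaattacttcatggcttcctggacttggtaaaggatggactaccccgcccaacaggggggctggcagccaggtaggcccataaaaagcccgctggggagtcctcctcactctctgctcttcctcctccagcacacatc
Saa1 and Saa2 are neighbouring genes in the annotation that are read in opposite directions, and their upstream stretches were identical at 238 of 251 aligned positions (94.8%). All other pairs among the 8 genes with a sequence in the table matched at 42.6% to 52.6% of positions. Both stretches carry TTGCACAA, at 182 to 175 bases before the start in Saa1 and 183 to 176 in Saa2, and Saa1 alone carries TTTCCCAA nearer the start, at 86 to 79 bases. Orm2 carries TTGCGCAA at 120 to 113 bases and TTTCCCAA at 108 to 101, and Lcn2 carries TTGCTCAA at 216 to 209. Searched on both strands, TTNNGNAA was found in 6 of the 8 (these 4, Saa4 and Hpx) and in 36.8% of 32851 promoter stretches of that length. The STAT-type motif TTCNNNGAA was found in 2 of 8, Apcs and Itih4, and in 7.02% of all. An NF-kB-type motif, GGG and any 2 bases followed by TTTCC, was found in 0 of 8 and in 1.41% of all. Wider forms of the NF-kB motif were not searched, so the 0 does not show that they are absent. As spelled here, none of the 3 motifs overlapped another in these stretches. Hp and Orm1 were not among the sequences used.

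**Figure D1:**
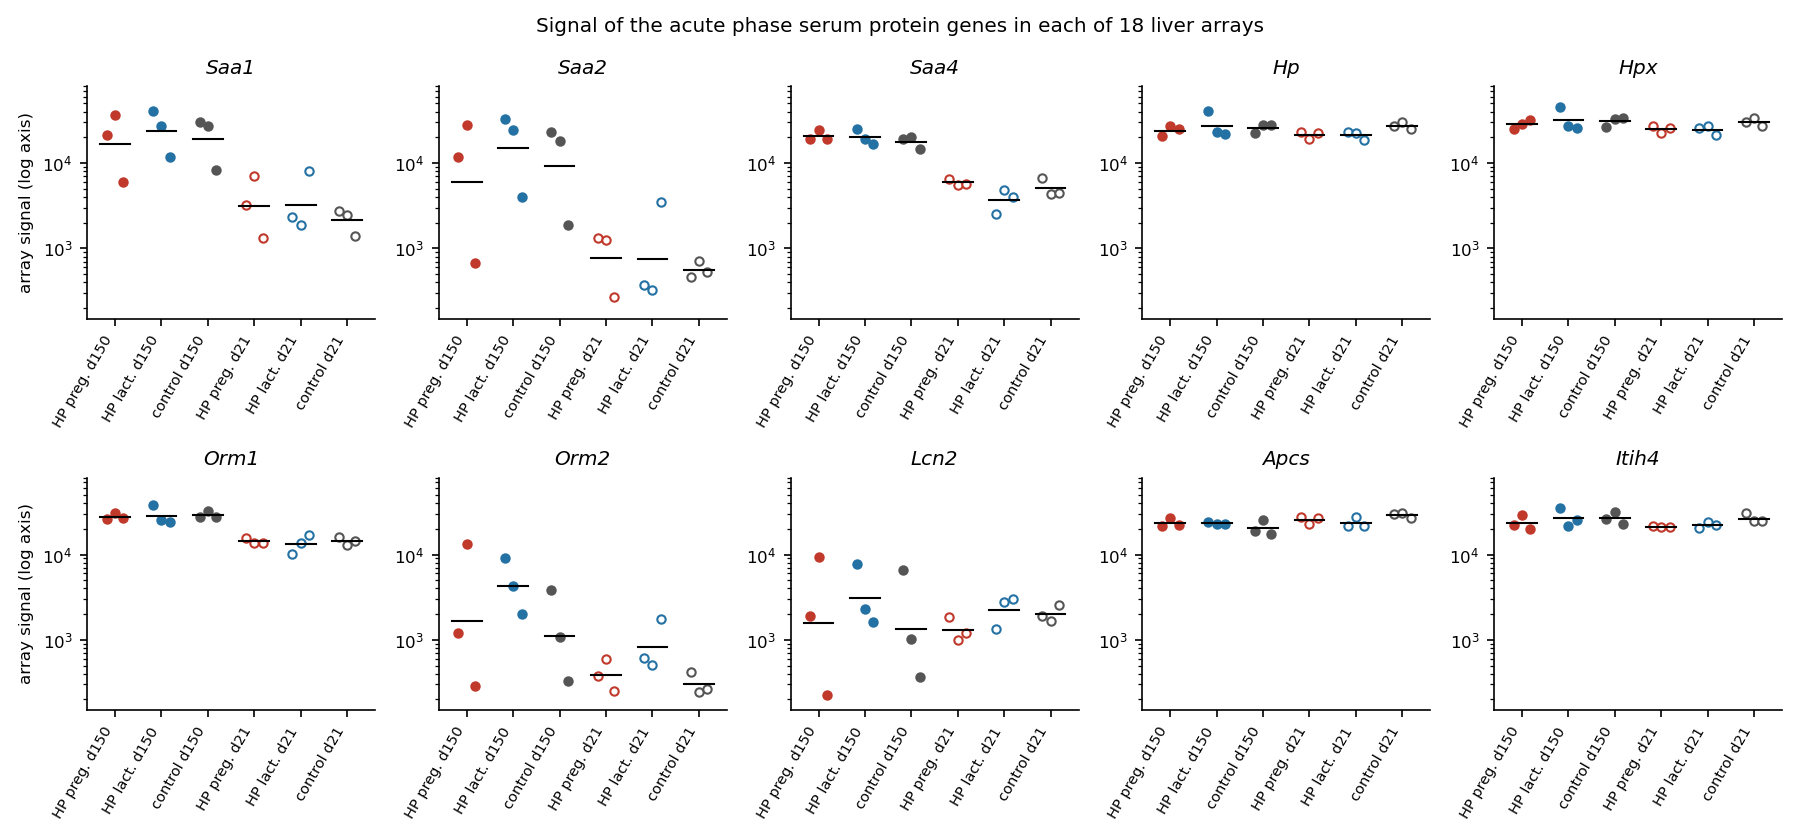
Array signal (log axis) of each gene in each of the 18 liver arrays, by group; filled points are day 150, open points day 21, and bars are geometric means of 3 arrays. Saa1, Saa2, Saa4 and Orm1 lie higher at day 150 and Saa2, Orm2 and Lcn2 scatter widely within the day 150 groups, while Hp, Hpx, Apcs and Itih4 stay within a narrow band.

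The largest contrast was between ages. At day 150, transcripts of Saa1, Saa4 and Orm1 were higher than at day 21 in all 3 diet groups, and Saa2 was higher after HP lactation and in control. Apcs was lower at day 150 in control. Hp, Hpx, Itih4, Orm2 and Lcn2 did not pass the test at either side in any diet group. With limma and Benjamini-Hochberg adjustment over all 11018 genes, 3 of the 10 genes passed in HP pregnancy, where 23.6% of all tested genes passed. In HP lactation 4 of 10 passed, against 25.7% of all genes, and in control 5 of 10 passed, against 17.8%. The genes that passed were higher at day 150 in HP pregnancy (3, where 12.1% of all genes passed as higher) and HP lactation (4, against 14.1%). In control 4 were higher, against 9.7% of all genes, and 1 was lower, against 8.08%. The ages did not overlap in 2 of 10 genes in HP pregnancy (43.9% of all genes), 5 in HP lactation (37.2%) and 5 in control (35.2%). The median log2 change of the 10 genes was 0.61 in HP pregnancy, 0.78 in HP lactation and 0.53 in control, beside 0.02, 0.03 and 0.02 over all tested genes. The count in HP pregnancy was 5 without day 150 replicate 3, and the count in control was 3 without day 21 replicate 2, without day 150 replicate 1 or without both arrays with Xist signal.

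Saa1, the most studied of the inducible serum amyloid A genes, had signals of 21311, 36925 and 5924 in the 3 HP pregnancy arrays of day 150, against 3262, 7131 and 1315 at day 21. After HP lactation it had 40611, 27221 and 11709 at day 150, against 2347, 1853 and 7964 at day 21. In control it had 30428, 27454 and 8177 at day 150, against 2755, 2483 and 1410.2 at day 21. All day 150 arrays lay above all day 21 arrays within HP lactation and within control, whereas HP pregnancy day 150 replicate 3 lay below day 21 replicate 2 of the same diet. The log2 change was 2.42 in HP pregnancy (5.34-fold, 95% interval 1.91 to 14.9, adjusted p = 0.0183). It was 2.85 in HP lactation (7.20-fold, 2.58 to 20.1, adjusted p = 0.00641) and 3.16 in control (8.91-fold, 3.19 to 24.9, adjusted p = 0.00501), the SE being 0.71 for each. Saa1 thus passed in each diet group, but in HP pregnancy the call was lost without day 21 replicate 3, day 150 replicate 1 or day 150 replicate 2 (log2 changes of 1.79 to 2.24, adjusted p = 0.0611 to 0.112). A further probe set that the platform names Saa1 rests on an accession that RefSeq assigns to Saa2, and its log2 changes were 2.43, 3.26 and 3.49 in HP pregnancy, HP lactation and control (adjusted p = 0.0374, 0.00675 and 0.00705). Since that further set and the Saa2 set are of the shared-probe kind, the signals of Saa1 and Saa2 cannot be assumed to be fully separate on these arrays. Transcript and probe sequences were not compared.

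Saa2, the inducible neighbour of Saa1, showed the largest age changes of the 10 genes and also the widest scatter. Its signals at day 150 were 11736, 27777 and 674 after HP pregnancy, 33258, 24447 and 4032 after HP lactation and 23342, 18126 and 1890.2 in control. At day 21 they were 1326, 1266 and 266 after HP pregnancy, 374, 326 and 3517 after HP lactation and 465, 701 and 532 in control. The day 150 arrays lay above those of day 21 in HP lactation and control, but HP pregnancy day 150 replicate 3 fell among the day 21 arrays, below 2 of the 3 in its diet group. The log2 change was 4.30 in HP lactation (SE 1.21, 19.7-fold, 95% interval 3.40 to 114, adjusted p = 0.0138). It was 4.06 in control (16.6-fold, 2.87 to 96.3, adjusted p = 0.0264) and 2.98 in HP pregnancy (7.89-fold, 1.36 to 45.7), where it did not pass (adjusted p = 0.0818). Single arrays decided these calls. Without HP pregnancy day 150 replicate 3 the change there was 4.56 and passed (adjusted p = 0.00807). In control the call was lost without any 1 of the day 21 replicates 1, 2 and 3 or the day 150 replicates 1 and 2 (adjusted p = 0.0593 to 0.105), and in HP lactation without day 21 replicate 1 or 2 or day 150 replicate 4 or 5 (adjusted p = 0.0517 to 0.0610).

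Saa4, the serum amyloid A gene classed as constitutive, had the smallest p-values of the 10 genes for age. Its signals at day 150 were 19357, 24217 and 19171 after HP pregnancy, 25363, 19068 and 16558 after HP lactation and 19177, 20171 and 14428 in control. At day 21 they were 6569, 5502 and 5749.5 after HP pregnancy, 2524, 4803 and 3994 after HP lactation and 6656, 4389.5 and 4398 in control. Every day 150 array lay above every day 21 array, and pools of a group differed by at most 1.90-fold. Saa4 rose by 1.81 on the log2 scale in HP pregnancy (3.51-fold, 95% interval 2.56 to 4.81, adjusted p = 1.43e-05), by 2.46 in HP lactation (5.49-fold, 4.01 to 7.52, adjusted p = 2.52e-07) and by 1.81 in control (3.51-fold, 2.56 to 4.82, adjusted p = 1.77e-05). A dimmer Saa4 probe set gave changes of 1.51, 1.73 and 1.76 in the same order (adjusted p = 0.00288, 0.000884 and 0.00135). The calls of the brighter probe set held under each alternative setting and without any single array. The dimmer set was not followed through these refits.

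Orm1, which encodes the orosomucoid also called alpha-1-acid glycoprotein, was also higher at day 150 in each diet group. Its signals at day 150 were 25879, 30338 and 26722 after HP pregnancy, 37858, 25098 and 24317 after HP lactation and 27589.6, 32224 and 27874 in control. At day 21 they were 15725, 13764 and 13650.3 after HP pregnancy, 10073, 13702 and 17032 after HP lactation and 16183, 12898 and 14246 in control. The ages did not overlap in any diet group. The rise was 1.92-fold in HP pregnancy (log2 change 0.94, SE 0.17, adjusted p = 0.000845), 2.14-fold in HP lactation (log2 change 1.10, adjusted p = 0.000175) and 2.03-fold in control (log2 change 1.02, adjusted p = 0.000602). It passed without any single array and under each alternative setting.

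Orm2, a second orosomucoid gene beside Orm1, varied far more between pools. Its day 150 signals were 1216, 13295 and 285 after HP pregnancy, 9192, 4304 and 2014 after HP lactation and 3877, 1085 and 331 in control. At day 21 Orm2 had 375, 594 and 251 after HP pregnancy, 616, 510.3 and 1734 after HP lactation and 419, 245 and 264 in control. In HP lactation all 3 day 150 arrays lay above the day 21 arrays, while in HP pregnancy and control the lowest day 150 array fell among those of day 21. The log2 changes of 2.12 in HP pregnancy, 2.40 in HP lactation and 1.89 in control did not pass (adjusted p = 0.133, 0.0852 and 0.207). Without HP pregnancy day 150 replicate 3 the HP pregnancy change was 3.40 and passed (adjusted p = 0.0160).

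Lcn2, whose product withholds iron from bacteria, had signals at day 150 of 1917, 9269 and 226 after HP pregnancy, 7751, 2317 and 1632 after HP lactation and 6624, 1022 and 366 in control. At day 21 its signals were 1830.3, 1004 and 1218 after HP pregnancy, 1337, 2769.8 and 2991 after HP lactation and 1908, 1655 and 2579.6 in control. The lowest and the highest Lcn2 signals of the series were both from HP pregnancy day 150, and the day 21 arrays lay between them. The log2 changes with age were 0.28 in HP pregnancy, 0.47 in HP lactation and -0.57 in control, none past the test (adjusted p = 0.868, 0.769 and 0.749), and their sign turned on single arrays. Without HP pregnancy day 150 replicate 2 the change there was -0.99, without HP lactation day 150 replicate 4 it was -0.20, and without control day 150 replicate 3 it was 0.37.

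Among the genes that passed, the pentraxin Apcs was the only one lower at day 150. In control it had 19003, 25285 and 17430.1 at day 150, against 30039, 30446 and 26511 at day 21, with no overlap, a log2 change of -0.51 that passed the test (adjusted p = 0.015). After HP pregnancy it had 21349, 26878 and 22259 at day 150, against 27412, 22583 and 26474 at day 21, and after HP lactation 24308, 23005 and 22935 at day 150, against 21853, 27498 and 21844 at day 21. These overlapped, with log2 changes of -0.12 in HP pregnancy and -0.01 in HP lactation (adjusted p = 0.567 and 0.965). The control call was lost without day 21 replicate 2 (-0.47, adjusted p = 0.0578), day 150 replicate 1 (-0.46, adjusted p = 0.0587) or day 150 replicate 3 (-0.40, adjusted p = 0.0794).

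The carriers of haemoglobin and haem showed no such age pattern. Hp had signals of 20482, 27300.5 and 24872 at day 150 after HP pregnancy, 40300.5, 22983 and 21609 after HP lactation and 22268, 28171 and 27758 in control. At day 21 Hp had 23382, 18878 and 22708 after HP pregnancy, 23125, 22515 and 18639 after HP lactation and 26849, 30138 and 24817 in control. Hpx, the haem carrier, ranged from 25477 to 45696 in the HP lactation arrays of day 150 and from 21528 to 33535 over all day 21 arrays. Itih4 ranged from 19996 to 35380.3 over the day 150 arrays and from 20489.8 to 30473 over those of day 21. The 3 genes overlapped between ages in every diet group, and in each the top day 150 signal came from HP lactation day 150 replicate 4. The probe sets of Hp, Hpx, Apcs and Itih4 were brighter on average than 99.6%, 99.8%, 99.6% and 99.6% of all probe sets. Whether such bright signals still respond in proportion was not tested.

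**Figure D2:**
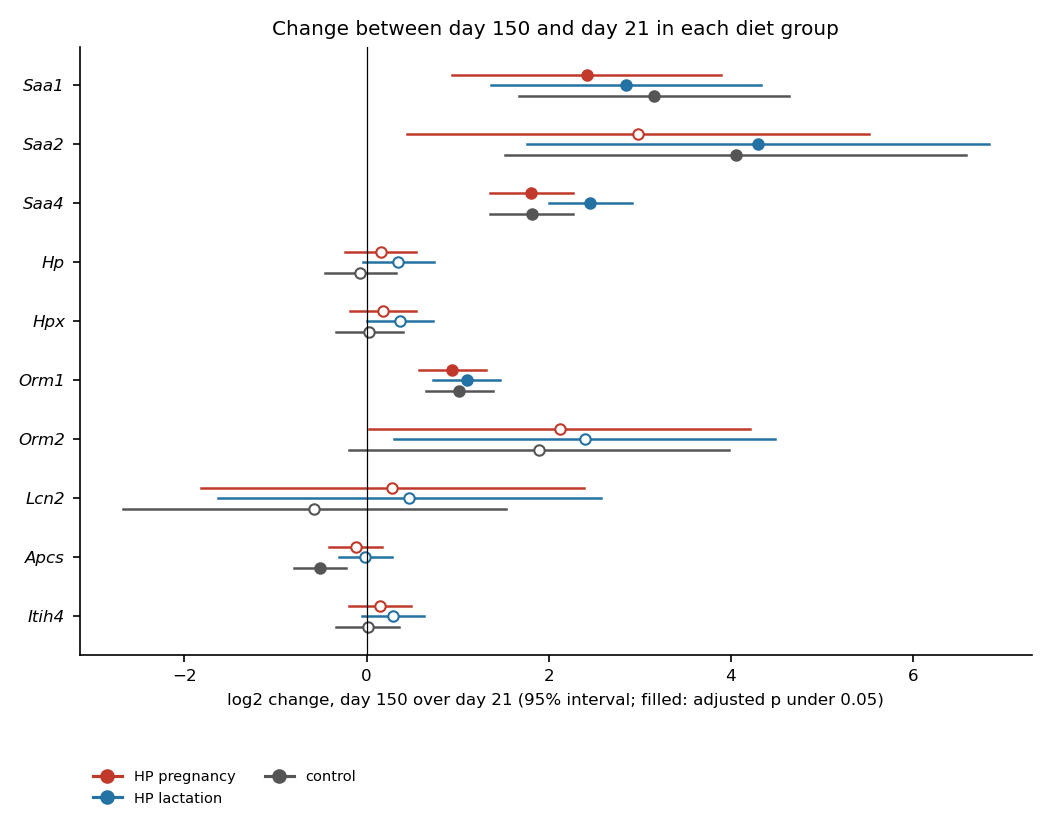
Log2 change between day 150 and day 21 (x axis) for each gene in HP pregnancy, HP lactation and control, with 95% intervals from the limma fit over 18 arrays; filled points passed an adjusted p of 0.05. Saa1, Saa4 and Orm1 passed in each diet group, and the intervals of Saa2, Orm2 and Lcn2 are several times wider than those of Saa4 or Orm1.

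The maternal diet comparisons gave 0 of 10 genes past the test at day 21. For HP pregnancy against control, 0% of the 11018 tested genes passed, and 0 of the 10 genes had an unadjusted p under 0.05. For HP lactation against control, 0.172% of all tested genes passed, and 2 of the 10 genes, Saa4 and Apcs, had an unadjusted p under 0.05. Saa4 had 2524, 4803 and 3994 after HP lactation, against 6656, 4389.5 and 4398 in control, the groups overlapping in 1 HP lactation array (log2 change -0.47 with SE 0.22, adjusted p = 0.336). Apcs had 21853, 27498 and 21844 after HP lactation, against 30039, 30446 and 26511 in control, again overlapping in 1 HP lactation array (log2 change -0.30 with SE 0.14, adjusted p = 0.338). Orm2 was the 1 gene whose 3 HP lactation arrays all lay above control, 616, 510.3 and 1734 against 419, 245 and 264, yet at 2.72-fold its 95% interval was 0.638 to 11.6 (log2 change 1.44, adjusted p = 0.53).

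Several bright genes had lower signals in the HP groups than in control at day 21 without passing the test. Hp had 23382, 18878 and 22708 after HP pregnancy and 23125, 22515 and 18639 after HP lactation, against 26849, 30138 and 24817 in control, so both HP groups lay below control, whose 3 arrays the comparisons share. Its log2 change was -0.33 for HP pregnancy (SE 0.19, adjusted p = 0.556) and -0.35 for HP lactation (adjusted p = 0.401). Itih4 had 21579, 20994 and 20913 after HP pregnancy, against 30473, 24477 and 24534 in control, again without overlap (log2 change -0.32, adjusted p = 0.528). Over the 10 genes, 2 did not overlap control after HP pregnancy, where 18.2% of all tested genes did not, and both lay below control, against 7.74% of all genes. After HP lactation 4 did not, where 16.1% of all genes did not: Hp, Hpx and Itih4 lay below control (8.71% of all genes) and Orm2 above (7.43%). Of the 8 hepatocyte markers, 0 passed the test in either comparison, and their summed signal was 152183 to 187051 after HP pregnancy and 154100 to 201236 after HP lactation, against 204242 to 215721 in control. The signal at the 99th percentile of an array was 15701 to 17018 after HP pregnancy and 14971 to 17741 after HP lactation, against 17713 to 19913 in control. After quantile normalization, which makes these percentiles equal, the log2 change of Hp was -0.10 in both HP groups that of Itih4 after HP pregnancy was -0.08 and that of Apcs after HP lactation was -0.02. The part of hepatocyte content in the lower Hp, Hpx and Itih4 signals was not tested.

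**Figure D3:**
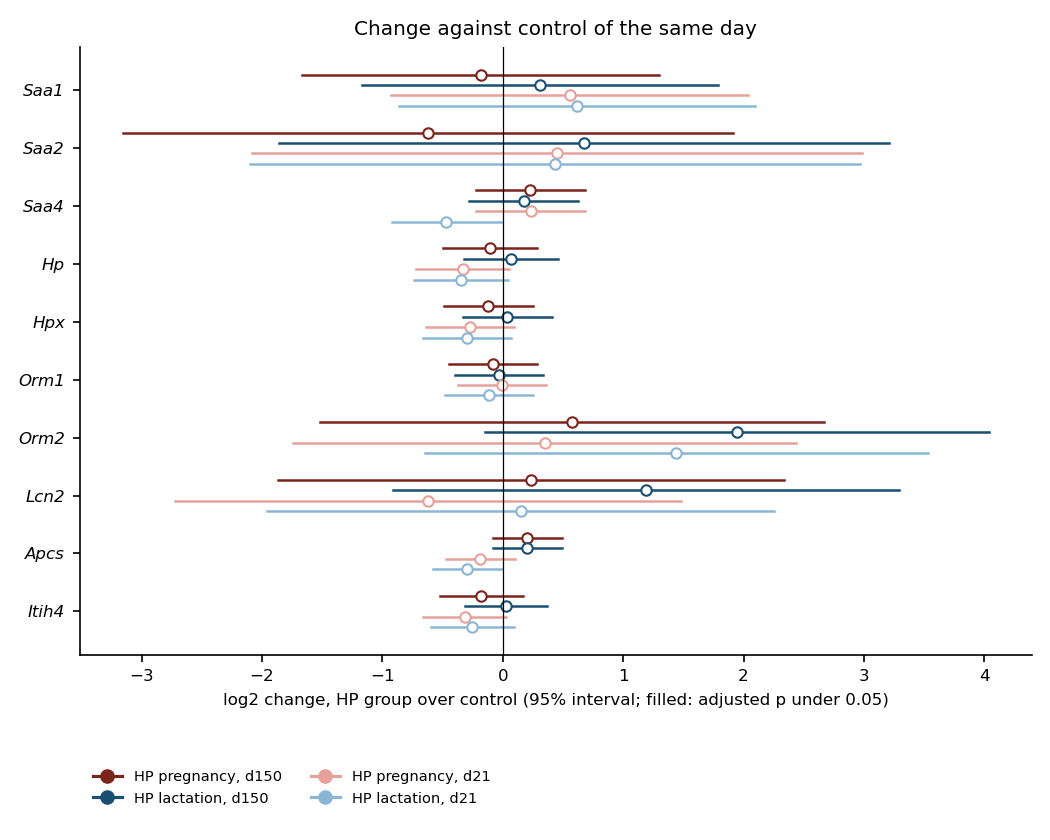
Log2 change of both HP groups over control, day by day (x axis), for each gene, with 95% intervals from the limma fit over 18 arrays; dark points are day 150, pale points day 21. No point is filled, since 0 of the 10 genes passed an adjusted p of 0.05 in these 4 comparisons, and the widest intervals are those of Saa2, Orm2 and Lcn2.

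At day 150, months after the dams' HP feeding had ended, 0 of 10 genes passed against control in either HP group. Of all tested genes, 2.63% passed for HP pregnancy and 0.00908% for HP lactation. Of the 10 genes, 0 had an unadjusted p under 0.05 in either. The arrays overlapped control in each of the 10, whereas 27.9% of all genes did not overlap for HP pregnancy and 13.7% for HP lactation. The precision differed greatly between genes. For Orm1, whose pools were alike, the ratio to control was 0.946 after HP pregnancy (95% interval 0.735 to 1.22) and 0.977 after HP lactation (0.759 to 1.26). For Saa4 it was 1.17 (0.855 to 1.61) after HP pregnancy and 1.13 (0.823 to 1.55) after HP lactation. The inducible genes could not be bounded closely. Orm2 averaged 4303 after HP lactation, against 1117 in control (geometric means), a ratio of 3.85 with an interval of 0.904 to 16.4 (log2 change 1.95, adjusted p = 0.667). Lcn2 averaged 3083 after HP lactation, against 1353 in control (log2 change 1.19, adjusted p = 0.803), and Saa2 14855 against 9282 (log2 change 0.68, adjusted p = 0.918). Without HP lactation day 150 replicate 4, 1 of the arrays with Xist signal, the change of Lcn2 was 0.52 and that of Saa2 was 0.10, and that of Orm2 ranged from 1.07 to 2.84 with single arrays left out.

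After HP pregnancy at day 150, Saa2 averaged 6033, against 9282 in control (log2 change -0.62 with SE 1.21, adjusted p = 0.834). The sign of that change rested on single pools: it was 0.96 without HP pregnancy replicate 3 and 0.04 without control replicate 1. Orm2 averaged 1665 after HP pregnancy, against 1117 in control (log2 change 0.58, adjusted p = 0.803), and its change was -0.92 without HP pregnancy replicate 2 and -0.30 without control replicate 3. The Saa2 change after HP lactation likewise became -0.47 without control replicate 3.

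Set against each other, the HP groups differed in 0 of the 10 genes at day 21 (1.28% of all tested genes passed) and in 0 at day 150 (0.717% passed). The closest was Saa4 at day 21, with 6569, 5502 and 5749.5 after HP pregnancy, all above 2524, 4803 and 3994 after HP lactation. The ratio was 1.63 (95% interval 1.19 to 2.23, log2 change 0.70, adjusted p = 0.127). It was the 1 gene of the 10 whose HP groups did not overlap at day 21, where 20.9% of all genes did not and 12.2% lay higher after HP pregnancy, and its dimmer probe set differed by 0.65 (adjusted p = 0.391). At day 150 the ratio of the same gene was 1.04, with an interval of 0.758 to 1.42. None of the 10 genes was without overlap then, against 22.9% of all genes.

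Whether the response to a diet changed with age was tested as the difference of the differences, which is also the test of whether the age change differed between a diet and control. None of the 10 genes passed for HP pregnancy or for HP lactation, where 0.0182% of all tested genes passed in each. For HP lactation, Apcs and Saa4 had an unadjusted p under 0.05. The Apcs difference was 0.50 on the log2 scale (SE 0.19, adjusted p = 0.929), its geometric mean lying above control at day 150 and below it at day 21. The Saa4 difference was 0.64 (SE 0.31, adjusted p = 0.929). For HP pregnancy the Apcs difference was 0.39 (adjusted p = 0.999), computed with the same control arrays. The lower Apcs signal at day 150 in control was therefore not shown to differ from that in the HP groups.

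The pools of a group were far apart in 4 of the 10 genes. The SD of log2 signal within groups at day 150 was 2.20 for Saa2, 2.09 for Lcn2 and 2.02 for Orm2, ranks 5, 6 and 7 among the 11018 tested genes, whose median was 0.22. Saa1 had 1.12, rank 117. At day 21 the SD was 1.36 for Saa2 (rank 32), 1.01 for Saa1 (rank 114), 0.70 for Orm2 (rank 384) and 0.49 for Lcn2 (rank 1047), beside a median of 0.23. In Lcn2 and Orm2 the pools were thus wider apart at day 150, while Saa1 was nearly as wide at day 21, and these spreads were not tested against each other. The other 6 genes, by their brightest probe sets, had SDs of 0.19 to 0.33 at day 150 and 0.12 to 0.35 at day 21, near those of other genes. The dimmer Saa4 probe set was wider at day 150, with SDs of 0.57 in HP pregnancy, 0.28 in HP lactation and 0.75 in control. Its highest and lowest day 150 pools were those of Saa2 in each group.

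The width is best seen pool by pool. In HP pregnancy at day 150 the highest pool exceeded the lowest 46.6-fold for Orm2, 41.2-fold for Saa2 and 41.0-fold for Lcn2, replicate 2 being highest and replicate 3 lowest each time. In control at day 150 the ratios were 11.7, 12.3 and 18.1, with replicate 1 highest and replicate 3 lowest. In HP lactation at day 150 they were 4.56, 8.25 and 4.75, with replicate 4 highest and replicate 6 lowest. Each of the 3 day 150 groups thus held 1 pool high for Saa1, Saa2, Orm2 and Lcn2 together and 1 low for all 4, whichever diet the dams had eaten. At day 21, HP lactation replicate 3 was highest in its group for all 4, with 3517 for Saa2 where the other pools had 374 and 326. HP lactation day 150 replicate 4 stood apart further, being highest in its group for each of the 10 genes, Hp and Hpx included, and HP pregnancy day 150 replicate 2 was highest for 9 of 10. This height of HP lactation replicate 4, an array with Xist signal, was not particular to the 10 genes. Its summed hepatocyte marker signal was 286588, against 184182 and 184472 in the other pools of its group. Fabp1, a bright liver gene, had 70591 there, against 40000 and 38161.

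**Figure D4:**
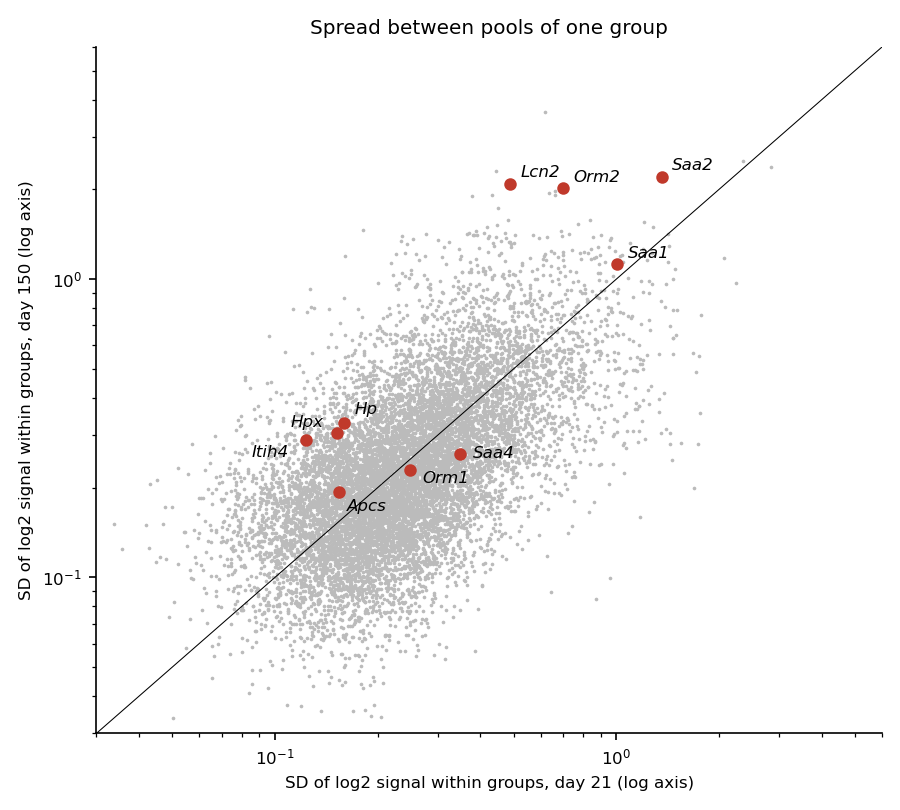
SD of log2 signal within groups at day 150 (y axis) against day 21 (x axis), both log axes; grey points are the 11018 tested genes, red points the 10 acute phase genes, and the line marks equal SDs. Saa2, Lcn2 and Orm2 sit at the top edge with day 150 SDs of 2.20, 2.09 and 2.02, while Saa4, Orm1, Apcs, Hp, Hpx and Itih4 lie among the other genes.

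Across the 18 arrays, with the mean of each day removed, some of the genes varied together. This is a description of arrays that share diets and days, with no test. Saa1 and Saa2, whose signals cannot be assumed to be fully separate, correlated at 0.93. Orm2 and Lcn2 correlated at 0.87, Saa2 and Orm2 at 0.81, Saa1 and Orm2 at 0.80, Saa2 and Lcn2 at 0.76 and Saa1 and Lcn2 at 0.63. Hp and Hpx correlated at 0.97 with each other and between -0.13 and 0.16 with those 4 genes. Among the 10 genes, Saa4 was closest to Orm1 (0.68) and Apcs (0.61), and Itih4 to Hp (0.67). In likeness over all tested genes, Saa1 and Saa2 ranked 1 for each other and Orm2 and Lcn2 ranked 2. By contrast, Orm1 ranked 97 for Saa4, Saa4 ranked 68 for Apcs and 17 for Orm1, and Hp ranked 83 for Itih4. Hpx ranked 1 for Hp, while Hp ranked 12 for Hpx. Many genes outside the 10 thus varied more closely with Saa4, Orm1, Apcs, Itih4 and Hpx. Outside the 10 genes, the transcript most like both Orm2 (0.90) and Lcn2 (0.89) was Orm3, another orosomucoid gene, and Lcn2 also tracked Prg4 (0.78) and Lrg1 (0.76). Atp11a (0.79) was most like Saa1 and Orm3 (0.74) most like Saa2. Hpx was most like Fabp1, the liver fatty acid binding protein (0.99), and Hp like Fabp1 (0.97) and the fibrinogen chain Fgg (0.96). Saa4 was most like the complement gene C8a (0.87), Orm1 like Rbms2 (0.79), Apcs like 2310022A10Rik (0.81), and Itih4 like its relative Itih3 (0.89).

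**Figure D5:**
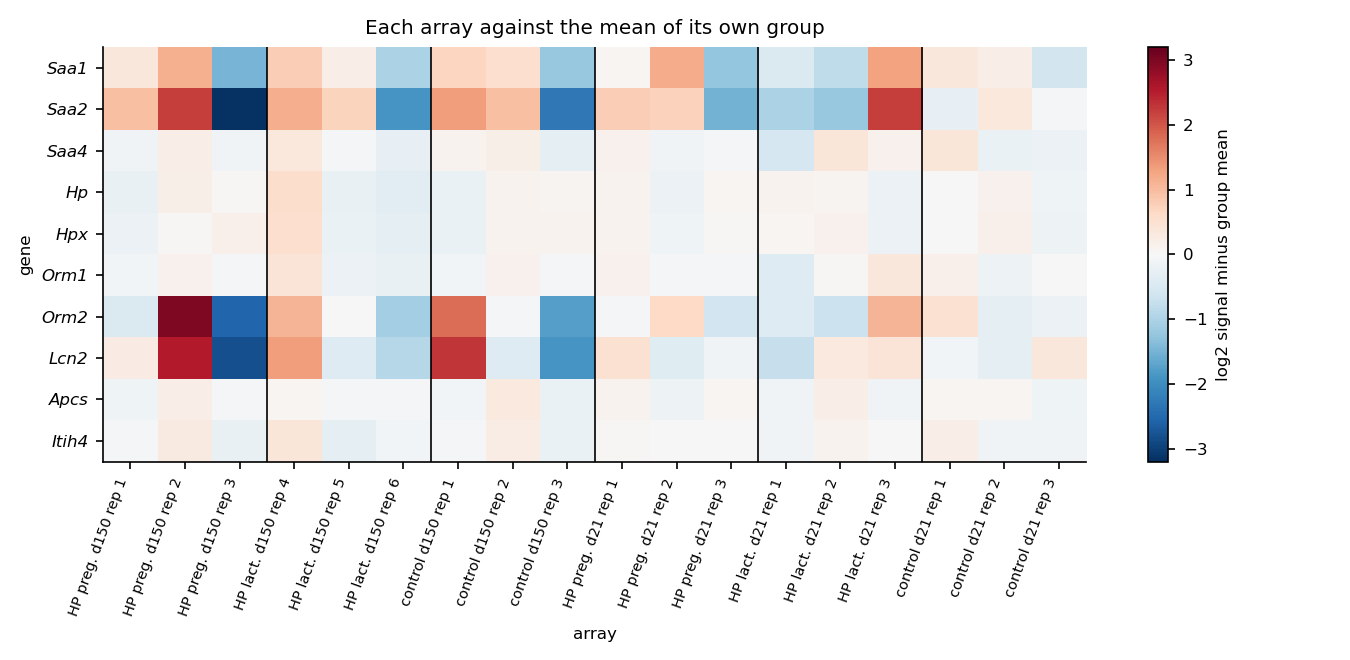
Log2 signal of each gene (rows) in each array (columns) minus the mean of its own group of 3; red is above and blue below, and lines part the groups. In each day 150 group Saa1, Saa2, Orm2 and Lcn2 are red in one pool and blue in another, and the remaining 6 genes are paler, deviating by at most 0.57, the value of Hp in HP lactation day 150 replicate 4.

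Other acute phase genes followed the same pools only in part. Orm3 had 145, 673 and 19.2 at day 150 after HP pregnancy, 426, 185 and 230 after HP lactation and 362, 135 and 23.1 in control. Saa3, a serum amyloid A gene made also by macrophages, had 4924, 2454 and 1072 after HP pregnancy, 1501, 1058 and 1139 after HP lactation and 11148, 1265 and 1463 in control. Orm3 was highest in the pools in which Orm2 was highest, whereas Saa3 was highest in replicate 1 rather than 2 of HP pregnancy. Lrg1, a secreted glycoprotein induced by interleukin 6, had 5295, 8894 and 4138 after HP pregnancy, 9383, 6561 and 6239 after HP lactation and 9252, 6198 and 4069 in control, its highest pool matching that of Orm2 in each group. Orm3 and Lrg1 were among the genes most like Lcn2 in these same arrays, so their match is no separate observation. Of the further induced genes below that passed for age or diet, Steap4, Cfb, Lbp and Slc39a14 were also highest in the pools highest for Orm2. Saa3, Crp, Hamp, Il1rn, Fgl1 and Serpina10 were not so in every group.

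Of 27 further induced acute phase genes listed, 23 were tested. With age, 3 rose and 2 fell in HP pregnancy, 5 rose and 2 fell in HP lactation, and 4 rose and 2 fell in control. These are 21.7%, 30.4% and 26.1% of the list, beside 23.6%, 25.7% and 17.8% of all tested genes. Their median log2 change with age was 0.09, 0.31 and -0.003 in that order. For single genes of this and the following lists, values with age are given for HP pregnancy, HP lactation and control in turn. Steap4, a metalloreductase, rose by 1.43, 1.47 and 1.51 on the log2 scale (adjusted p = 0.0034, 0.0026 and 0.00337), and Hamp, the iron hormone hepcidin, by 0.77, 0.60 and 0.70 (adjusted p = 0.00311, 0.0135 and 0.00798). Saa3 passed in HP pregnancy alone (1.94, adjusted p = 0.0381). Crp, the other classical pentraxin, passed in HP lactation (0.65, adjusted p = 0.0013) and control (0.38, adjusted p = 0.0457). Il1rn, the interleukin 1 receptor antagonist, changed by -2.34, -1.81 and -1.63 (adjusted p = 0.000597, 0.00385 and 0.0117). The complement factor Cfb was the 1 gene of the list past the test for a diet, with a geometric mean of 3654 after HP pregnancy at day 150, against 5871 in control (log2 change -0.68, adjusted p = 0.0416), in a comparison where 2.63% of all tested genes passed. The Cfb call was lost in 10 of 17 alternative fits (another setting, or 1 array left out), among them each of the 6 that left out 1 compared array (adjusted p up to 0.157). The Steap4 calls were kept in every alternative fit, whereas the Saa3 call was lost in 6 of 17 (adjusted p up to 0.173). The Crp call in control was lost in 11 of 17 (up to 0.14), that of Hamp in HP lactation in 4 of 16 (without day 21 replicate 3 or day 150 replicate 4 among them, up to 0.0828), and that of Il1rn in control in 3 of 16 (without day 21 replicate 2 or day 150 replicate 2 among them, up to 0.0671).

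Negative acute phase genes, which the liver makes less of during inflammation, were tested for 13 of 14 listed. With age 0 rose and 4 fell in HP pregnancy, 1 rose and 2 fell in HP lactation, and 0 rose and 4 fell in control, or 30.8%, 23.1% and 30.8% of the list, beside 23.6%, 25.7% and 17.8% of all tested genes. Serpina6, the corticosteroid carrier, fell in each group, with log2 changes of -0.77, -0.81 and -0.67 (adjusted p = 0.016, 0.0114 and 0.0408). Its control call was lost without any 1 of the 6 arrays (adjusted p up to 0.141), its HP pregnancy call without day 21 replicate 2 or 3 or day 150 replicate 1 (up to 0.0878), and its HP lactation call without day 21 replicate 3 or day 150 replicate 6 (up to 0.061). Itih1 and Itih2, heavy chains related to Itih4, were lower than control after HP pregnancy at day 150, 15.4% of the list beside 2.63% of all tested genes. Itih1 averaged 4029.8 there, against 6287 in control (log2 change -0.64, adjusted p = 0.0381), and Itih2 8381 against 11965 (-0.51, adjusted p = 0.0409). Both calls were lost whichever 1 of the 6 arrays was left out, and in 8 of 17 alternative fits for Itih1 (adjusted p up to 0.141) and 10 of 17 for Itih2 (up to 0.174). Itih4 itself did not pass in that comparison, its ratio to control being 0.884 (95% interval 0.697 to 1.12, adjusted p = 0.59).

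Of 36 genes of the cytokine pathways upstream of these proteins, 28 were tested. With age 9 rose and 0 fell in HP pregnancy, 6 rose and 2 fell in HP lactation, and 5 rose and 0 fell in control, with medians of 0.29, 0.21 and 0.26. These are 32.1%, 28.6% and 17.9% of the list, beside 23.6%, 25.7% and 17.8% of all tested genes. Jak2, the kinase, rose by 0.58, 0.44 and 0.66, Lifr, a receptor for leukaemia inhibitory factor, by 0.71, 1.14 and 0.84, and Hnf4a, a hepatocyte factor, by 0.52, 0.49 and 0.43 on the log2 scale. Cebpa passed in HP pregnancy (0.68, adjusted p = 0.00161) and HP lactation (0.90, adjusted p = 0.00012). The largest called rises in HP pregnancy were those of Il1r1 (1.34, adjusted p = 0.0136) and Osmr (1.17, adjusted p = 0.0129). In HP lactation the genes that fell were Cebpd (-1.09, adjusted p = 0.0422) and Jak1 (-0.52, adjusted p = 0.0034). No gene of this list passed against control for either diet at either day. Stat3, which carries the interleukin 6 signal to the genome, was lower in the HP pregnancy arrays than in those of HP lactation at day 150, 2166, 2284 and 1817 against 4326, 2925 and 3476 (log2 change -0.76, adjusted p = 0.0406), in a comparison where 0.717% of all tested genes passed. The Stat3 call was lost in 10 of 16 alternative fits, with each left-out array except HP lactation replicate 5 among them (adjusted p up to 0.25). With age, the Cebpa and Jak1 calls were kept in every alternative fit. The call of Il1r1 was lost in 3 of 17, that of Osmr in 2 of 16 and that of Cebpd in 10 of 16. The Lifr call was lost in HP pregnancy without day 21 replicate 1 or 3 or day 150 replicate 1 or 3 (up to 0.0982) and in control without day 21 replicate 3 or day 150 replicate 2 (up to 0.0565). The Jak2 call was lost in HP lactation without day 150 replicate 5 or with the compared arrays alone (up to 0.0626), and the Hnf4a call in control without day 150 replicate 2 and in HP lactation with the compared arrays alone (0.0582 and 0.0594).

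The receptors and enzymes that handle haemoglobin and haem included 11 tested genes of 12. With age 2 rose and 1 fell in HP pregnancy, 1 rose and 1 fell in HP lactation, and 0 rose and 1 fell in control, or 27.3%, 18.2% and 9.1% of the list, beside 23.6%, 25.7% and 17.8% of all tested genes. Cd163, the macrophage receptor for haptoglobin bound to haemoglobin, rose in HP pregnancy (0.82, adjusted p = 0.0207) and HP lactation (0.68, adjusted p = 0.0475). The HP lactation call was lost in 10 of 16 alternative fits, without day 21 replicate 1 or 3 or day 150 replicate 4 or 5 among them (adjusted p up to 0.226), and the HP pregnancy call without day 21 replicate 2 or 3 or day 150 replicate 2 (up to 0.125). Hmox2, the constitutive haem oxygenase, fell in all 3 groups by 0.60, 0.36 and 0.49 on the log2 scale, its HP lactation call being lost with equal 75th percentiles or the compared arrays alone (up to 0.0872). Of the 10 listed partners of serum amyloid A on high density lipoprotein, all tested, 0 rose and 2 fell in HP pregnancy, and 1 rose and 2 fell in HP lactation and in control alike. These are 20.0%, 30.0% and 30.0% of the list, beside 23.6%, 25.7% and 17.8% of all tested genes. Scarb1, the lipoprotein receptor, changed by -1.05, -0.61 and -0.93, and Lcat, which esterifies cholesterol on the particle, by -0.85, -0.52 and -0.74, each past the test and kept in every alternative fit. In the diet comparisons 0 genes of the haem and lipoprotein lists passed.

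Lcn2 and Saa3 are also made by white blood cells, so markers of those cells are given beside them. Of 13 neutrophil markers listed, 11 were on the array and 4 passed the filter (S100a8, S100a9, Ngp and Mpo); Camp, Ltf, Elane, Csf3r, Mmp8, Mmp9 and Cxcr2 did not. The summed signal of all 11 at day 150 was 1341, 1806 and 1341 after HP pregnancy, 1917, 963 and 526 after HP lactation, and 1622, 832 and 1052 in control. At day 21 it was 981 to 1439 after HP pregnancy, 864 to 1157 after HP lactation and 808 to 1445 in control, and 0 of the 4 kept passed the test with age in any diet group. The pool with the highest sum at day 150, over the 11 or over the 4, was the pool with the highest Lcn2 in each group. S100a8 alone had 447, 818 and 497 after HP pregnancy, 634, 279.8 and 120.5 after HP lactation and 717, 250.3 and 358 in control, and S100a9 had 485, 685 and 346 after HP pregnancy, 691, 278 and 161 after HP lactation and 648, 315 and 286 in control. In HP pregnancy replicate 3, lowest for Lcn2, S100a9 was lowest of the 3 pools and S100a8 was not. The other kept markers were dimmer. Ngp had 58.2, 98.8 and 91.1 after HP pregnancy, 179.5, 42.1 and 78 after HP lactation and 33.9, 65.4 and 64.2 in control. It was thus highest in the pool with the highest Lcn2 in both HP groups and lowest there in control. Mpo had 83.3, 56.5 and 86.5, then 65.1, 74.6 and 80.8, then 77.7, 59.6 and 97.2 in the same order. In no group was Mpo highest in the pool with the highest Lcn2. Kupffer cell markers summed to 21557 to 23421 after HP pregnancy, 16272 to 24615 after HP lactation and 17845 to 24110 in control at day 150, against 14807 to 19856, 11549 to 16056 and 13317 to 15149 at day 21. With age 2 of 8 rose and 1 fell in HP pregnancy, 4 rose and 1 fell in HP lactation and 2 rose in control. Beside these and the following marker counts, 23.6%, 25.7% and 17.8% of all tested genes passed with age in the same order. Stellate cell and fibroblast markers were lower at day 150, 3 of 8 falling in HP pregnancy, 4 in HP lactation and 5 in control, with median log2 changes of -0.66, -0.83 and -1.15. Their summed signal at day 150 was 12817 to 16487 after HP pregnancy, 12120.3 to 13201 after HP lactation and 11922 to 19470 in control, against 23199 to 23587, 19584 to 27496 and 21619 to 31383 at day 21. Of the lymphocyte markers kept, Ptprc rose with age in all 3 groups and Ighm in HP lactation, and of the endothelial markers Lyve1 fell in all 3 groups while Clec4g rose in HP lactation. The part of these cells in the acute phase signals was not tested.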

How the data were processed

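Liver RNA was measured on 18 arrays in 6 groups of 3. The authors deposited linear array signal intensities, made with MAS5 in GCOS 1.4 per the submitters' processing notes, with the trimmed mean of each array at 500.0. No depth or detection calls were used, and the 3 arrays per group limit the precision. Log2 signals, with 0 added, were kept where a probe set's mean reached the median of the non-control sets (5.85), and the probe set with the highest mean stood for a gene. A linear model of the 6 group means, with moderated variances and a trend on intensity (eBayes), was fitted to all 18 arrays with limma 3.58.1 (R 4.3.3), so the groups share 1 estimate of spread (12 residual and 6.47 prior degrees of freedom). Tests were two-sided, with Benjamini-Hochberg adjustment over 11018 genes in each of 11 comparisons and a threshold of 0.05. Code was tested on simulated data. Of 45101 probe sets, 34945 named 1 gene, 932 several and 9160 none besides 64 controls; 34741 matched RefSeq by gene ID. Genes named beyond the 10 passed the test, had one of the 3 smallest p-values of their list, or were the 3 most correlated with a member. The members and lists were chosen with earlier results of these data known. The 12 alternatives covered the filter, normalization, added value, probe sets, eBayes trend, array weights, arrays fitted, a replicate block, arrays with Xist signal and each array left out. Plots used matplotlib 3.10.9 (Python 3.11.15).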

Additional observations from a re-analysis of the deposited data

How the results depend on the processing

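The counts of 0 among the 10 genes in the diet and interaction comparisons remained 0 under every alternative that could be run, each array left out included. For age, the count in HP pregnancy was 3 and became 5 with array weights, and 2 to 5 with single arrays left out. The count in control was 5 and became 3 without the arrays with Xist signal, and 3 to 4 with single arrays left out. The count in HP lactation was 4 and ranged from 3 to 5. Of 12 called changes, none turned sign in 200 refits and 19 refits lost a call, of Saa1 (HP pregnancy), Saa2 (HP lactation and control) and Apcs (control). Saa2 in control also missed the threshold with eBayes without trend (adjusted p = 0.0509). Of 98 changes not called, 142 of 1750 refits turned the sign and 6 passed. Among the changes printed above, the sign of Lcn2 with age turned to -0.20 in HP lactation without the arrays with Xist signal, and single arrays left out spread Lcn2 from -0.99 to 1.69 in HP pregnancy, -0.20 to 0.93 in HP lactation and -1.72 to 0.37 in control. The age change of Apcs in HP lactation was 0.065 with equal 75th percentiles and -0.067 to 0.10 with single arrays left out, including 0.001 and 0.004. The day 150 diet changes spread from -1.77 to 0.96 for Saa2 and -0.92 to 1.85 for Orm2 after HP pregnancy and from -0.47 to 1.62 for Saa2 after HP lactation, with 0.04 and -0.30 among them. Same-numbered arrays of different groups did not deviate together (30 pairs, correlations of -0.11 to 0.10), so the numbers were not taken to pair them. The replicate block, fitted to the 15 arrays numbered 1 to 3, changed no call among the 10 genes (5 in control and 3 in HP pregnancy with age); HP lactation at day 150 is numbered 4 to 6 and no paired analysis was possible there because it shares no number with other groups. With 3 arrays per group and pools so far apart, changes of Saa2, Orm2 and Lcn2 under several fold were not detectable. Orm2 with age passed in HP pregnancy with array weights (2.54, adjusted p = 0.0327) and in HP lactation with the compared arrays alone (2.40, adjusted p = 0.0172).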
